A study of Mus musculus with 9 samples.

Results

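Proteasome genes were followed in livers of mice given acetaminophen (APAP), a drug whose overdose injures hepatocytes, with or without a later infusion of cells. Members were the rows of the deposited count table whose symbol starts with Psma to Psmg and a digit, without symbols holding -ps, and with at least 10 counts in at least 3 libraries. The rule used no fold change. It gave 49 genes of 28956 rows, and all 49 passed the low-count filter that left 17582 genes tested. Of 50 candidate symbols 1 was left out, the thymus subunit Psmb11, which had at least 3 counts in 3 libraries, while the weakest genes kept, Psmc3ip and Psma8, had at least 32 and 68. By textbook role the 49 were 15 core subunits, 23 genes of the regulatory particles, activators and core inhibitor, the 3 immunoproteasome subunits Psmb8, Psmb9 and Psmb10, and 7 assembly chaperones. The remaining 1 was Psmc3ip, which matches the symbol rule but encodes a partner of a meiotic recombinase and no proteasome subunit. All mice were C57BL6J, 8 weeks old, and received 300 mg/kg APAP by intraperitoneal injection. APAP_MSC mice also received 500000 of the cells labelled MSC intravenously 90 min after APAP, APAP_HDF mice 500000 of the cells labelled HDF at the same time, and APAP mice are labelled with no cells. RNA came from a piece of whole liver, although the cell type is labelled hepatocytes, and the series title gives 24 h. There were 3 libraries per group, no group labelled untreated, and nothing in the labels says whether libraries came from separate animals, so p-values measure the spread between these libraries.

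The proteasome is the barrel-shaped protease that degrades ubiquitin-tagged proteins. Its core is made of stacked rings of alpha and beta subunits, and only 3 beta subunits are proteolytic. Cells exposed to interferon gamma replace these by the immunoproteasome subunits, which change the peptides offered on MHC class I. The core is opened by a regulatory particle with an ATPase base and a lid, or by the activators PA28, itself induced by interferon gamma, and PA200. In liver, hepatocytes mostly carry the constitutive core and immune cells the immunoproteasome.

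The libraries held between 53267000 and 63176000 counts (5 significant digits), and the 49 genes together held 0.379% to 0.481% of counts. Levels below are CPM, counts scaled to a common library size with TMM factors. Libraries are numbered by column order within a group. The 11 hepatocyte markers present in the table summed to 108332 to 119570.0 CPM in APAP_MSC, 98357 to 126847 CPM in APAP_HDF and 101790.0 to 127421 CPM in APAP libraries. Leukocyte, endothelial and cholangiocyte marker sums were above 0 in every library, as in mixed liver tissue. APAP library 3 stood apart, which was seen after its values were known. It was the highest of the 9 libraries for 22 of 22 tested genes of an interferon gamma response list, against 11% of all tested genes. Among these, the T-cell chemokine gene Cxcl9 had 20.4 CPM there and at most 2.27 CPM in any other library, and the GTPase gene Tgtp1 had 31.9 CPM there and at most 2.66 CPM elsewhere. Of the 49 proteasome genes 7 (14.3%) were highest in this library, Psmb8 and Psmb9 among them.

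Levels per kilobase of exon, averaged over the 9 libraries, differed widely between roles. Length was the union of exons over a gene's protein-coding transcripts, for example 2911 bases for Psma2 and 1241 for Psma1. These 2 genes averaged 90.0 and 89.1 CPM in APAP livers, so ranks and shares per kilobase depend on the length used. Psmb6, the caspase-like constitutive subunit, was the most abundant member at 227 CPM per kb, followed by the structural beta subunit Psmb4 at 139 CPM per kb. The 7 alpha ring genes lay between 30.2 (Psma2) and 112 CPM per kb (Psma4), the 6 base ATPases between 38.5 (Psmc6) and 104 (Psmc4), and the 8 lid genes between 36.6 (Psmd12) and 101 (Psmd8). The 3 immunoproteasome genes were well below their constitutive counterparts, with Psmb10 at 18.2, Psmb9 at 7.04 and Psmb8 at 5.91 CPM per kb, against Psmb7 at 59.7, Psmb6 at 227 and Psmb5 at 88.9 CPM per kb. Assembly chaperones ranged from 6.14 (Psmg3) to 19.4 CPM per kb (Psmg1). Psma8, the testis-type alpha subunit, and Psmc3ip were lowest at 0.562 and 0.376 CPM per kb. Between libraries of a group, the median SD of log2 CPM over the 49 genes was 0.06 in APAP_MSC, 0.08 in APAP_HDF and 0.10 in APAP. Over all tested genes it was 0.18, 0.22 and 0.23 in the same order of groups. The 49 genes and all tested genes were not matched for level, and low counts widen this SD.

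The comparison of APAP_MSC with APAP_HDF livers asks what differs between infusing MSC and infusing the other cell type. The PA28 activator genes Psme1 and Psme2, the Psme2 copy Psme2b and the immunoproteasome gene Psmb10 had 1.52 to 1.64 times the APAP_HDF level in APAP_MSC livers. The lid gene Psmd8 and the PA200 gene Psme4 had 0.775 and 0.761 times the APAP_HDF level there. With edgeR's quasi-likelihood test and Benjamini-Hochberg adjustment over 17582 genes, these 6 of 49 members (12.2%) passed an adjusted p of 0.05, against 8.89% of all tested genes. Of the members 4 (8.16%) were higher, against 4.9% of all genes, and 2 (4.08%) lower, against 3.99%, so the count of lower members stood near the background. At an unadjusted p under 0.05 there were 13 members (26.5%), against 25.7% of all genes (12.7% higher and 13% lower). The libraries of the groups did not overlap for 25 members (51%, 13 higher and 12 lower), against 33.2% of all genes (16.8% higher and 16.4% lower). Median log2 fold change was -0.01 over the members and -0.02 over all tested genes. In tissue RNA, fewer cells of a type and less RNA per cell cannot be told apart. Fits that left out 1 library called 0 to 6 members. Without APAP library 1, 2 or 3 they called 6 (12.2%), 5 (10.2%) and 6 members (12.2%), against 9.62%, 7.9% and 9.95% of all genes tested in the same fit. Without APAP_MSC library 1, 2 or 3 they called 1 (2.04%), 0 (0%) and 2 members (4.08%), against 3.46%, 1.99% and 5.85% of all genes. Counts this small cannot set the members apart from the background. Without APAP_HDF library 1, 2 or 3 they called 4 (8.16%), 3 (6.12%) and 2 members (4.08%), against 5.46%, 5.21% and 5.87% of all genes. DESeq2 called 7 members (14.3%), against 14.4% of all genes. Against APAP, edgeR called none of the 6 members in either infused group. In APAP_MSC and APAP_HDF, log2 fold changes over APAP were 0.28 and -0.43 for Psmb10 and 0.23 and -0.39 for Psme1. They were 0.37 and -0.24 for Psme2, 0.37 and -0.31 for Psme2b, -0.24 and 0.12 for Psmd8, and -0.24 and 0.16 for Psme4.

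**Figure D1:**
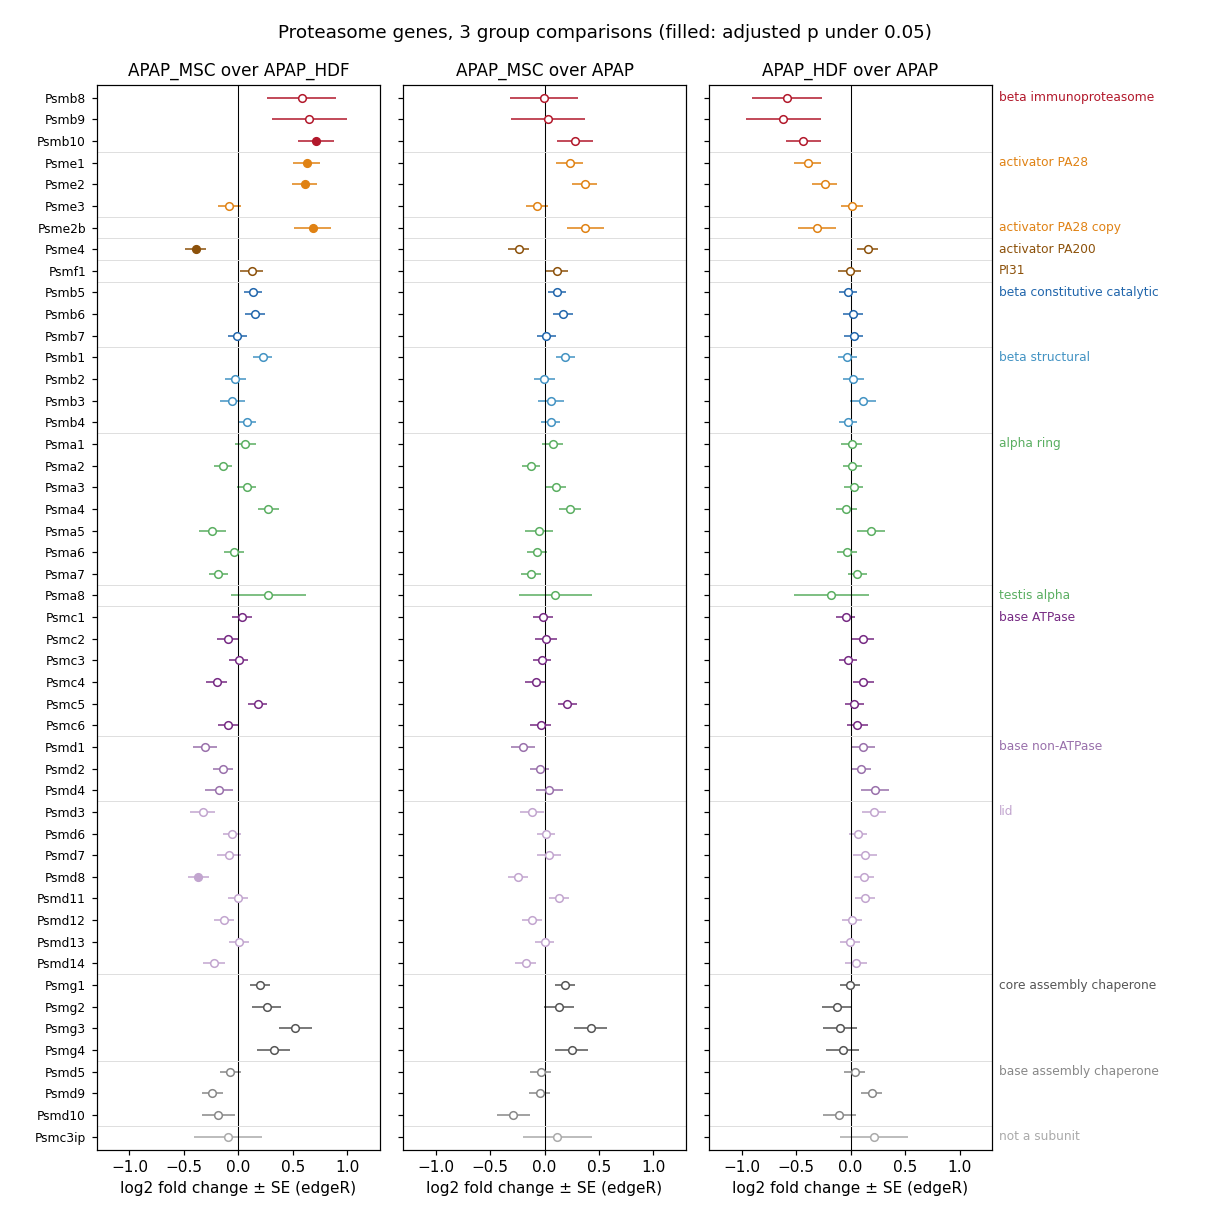
Log2 fold change (x axis, edgeR), with an SE derived from its F statistic, of the 49 proteasome genes (rows, grouped by role) for APAP_MSC over APAP_HDF, APAP_MSC over APAP and APAP_HDF over APAP. Filled symbols passed an adjusted p of 0.05. In the left panel 6 symbols are filled, 4 to the right of 0 and 2 to the left; no symbol is filled in the other panels.

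Among the immunoproteasome subunits, Psmb10, which replaces the trypsin-like Psmb7, had 27.1, 31.5 and 29.6 CPM in APAP_MSC livers, 18, 19 and 16.9 CPM in APAP_HDF livers and 23.6, 18.2 and 30.9 CPM in APAP livers. Each APAP_MSC library was above each APAP_HDF library, and APAP libraries overlapped both groups. Psmb10 averaged 29.4 ± 2.25 CPM in APAP_MSC and 18 ± 1.06 CPM in APAP_HDF livers (SD, n = 3 each), a log2 fold change of 0.71 (SE 0.16) with an edgeR adjusted p of 0.0231. Leaving out 1 of the APAP_MSC libraries 1 to 3 gave edgeR adjusted p-values of 0.0506, 0.103 and 0.0542, and leaving out 1 of the APAP_HDF libraries 0.0539, 0.0516 and 0.0598. The call needed all 6 of these libraries, and the log2 fold change stayed between 0.67 and 0.77.

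Psmb8, which replaces the chymotrypsin-like Psmb5, had 12.6, 10.5 and 9.30 CPM in APAP_MSC livers, 9.05, 7.39 and 5.23 CPM in APAP_HDF livers and 8.58, 6.93 and 16.9 CPM in APAP livers. APAP library 3 was the highest of all, and each APAP_MSC library lay above each APAP_HDF library. The difference of APAP_MSC from APAP_HDF did not pass the test, at a log2 fold change of 0.58 (SE 0.32, edgeR adjusted p = 0.287). Psmb9, which replaces the caspase-like Psmb6, had 12.9, 10.6 and 9.36 CPM in APAP_MSC livers, 11.1, 5.69 and 4.06 CPM in APAP_HDF livers and 10.1, 7.67 and 14.2 CPM in APAP livers. APAP_HDF library 1 overlapped the APAP_MSC libraries, while APAP_HDF libraries 2 and 3 were the lowest of the 9. Its log2 fold change of APAP_MSC over APAP_HDF was 0.65 (SE 0.35, edgeR adjusted p = 0.273). Without APAP_HDF library 1 it was 1.17 with an adjusted p of 0.0333, which would be a call, and without any other single library it was not called, with an adjusted p of up to 0.508 without APAP_HDF library 3. In RefSeq order Psmb9 and Psmb8 flank Tap1, the gene of a peptide transporter subunit, on chromosome 17 with no coding gene between. Tap1 had 29.9, 29.4 and 22.5 CPM in APAP_MSC livers, 34.4, 20.3 and 19.2 CPM in APAP_HDF livers and 24.2, 20.3 and 48.5 CPM in APAP livers. Neither Tap1 (edgeR adjusted p = 0.826) nor Psmb8 or Psmb9 was called between APAP_MSC and APAP_HDF.

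**Figure D2:**
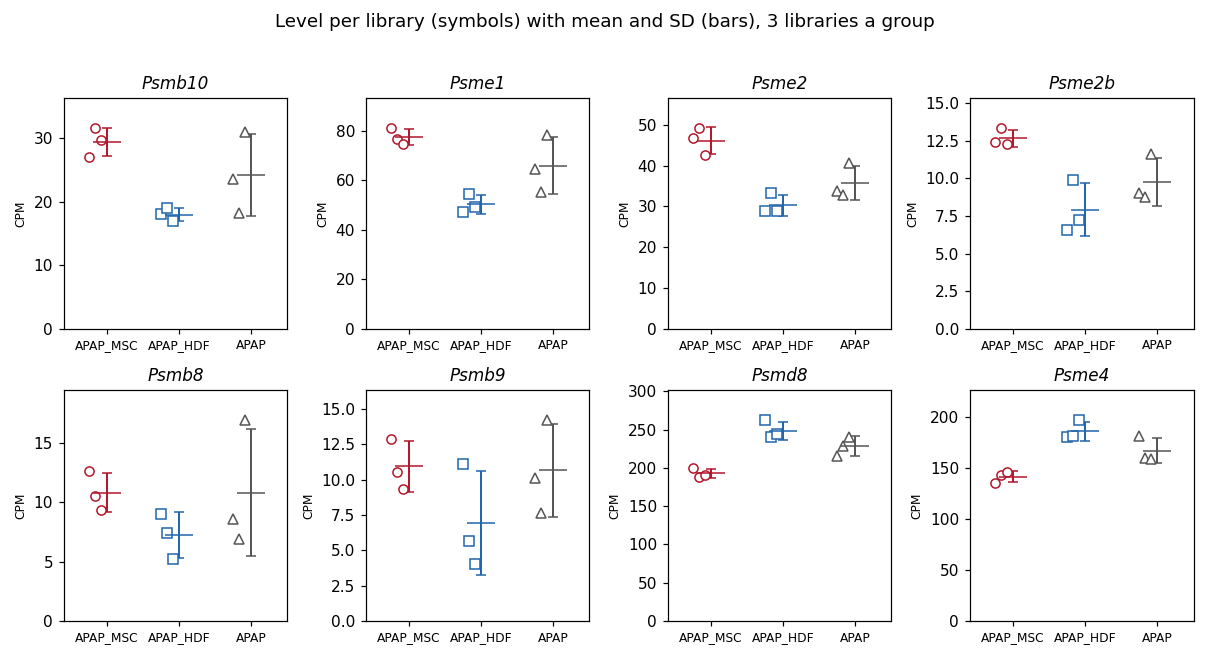
Level in CPM (y axis, from 0) of Psmb10, Psme1, Psme2, Psme2b, Psmb8, Psmb9, Psmd8 and Psme4 in each of 3 APAP_MSC (circles), 3 APAP_HDF (squares) and 3 APAP (triangles) libraries, in library order 1 to 3, with the mean (wide bar) and SD (error bar). For Psmb10, Psme1, Psme2 and Psme2b the APAP_MSC symbols are all above the APAP_HDF symbols, and for Psmd8 and Psme4 all below them.

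None of the 3 constitutive catalytic subunits was called by edgeR, DESeq2 or limma-voom. In APAP_MSC over APAP_HDF edgeR called 8.89% and DESeq2 14.4% of all genes, and limma-voom called 1437 genes. Psmb5 had 85.1, 83.9 and 84.4 CPM in APAP_MSC livers, 74.9, 80.5 and 75.9 CPM in APAP_HDF livers and 75.1, 79.1 and 80.4 CPM in APAP livers. Its APAP_MSC libraries were above all others, by a log2 fold change of 0.13 (SE 0.08, edgeR adjusted p = 0.348) over APAP_HDF. Psmb6 had 188, 207 and 190.0 CPM in APAP_MSC livers, 167, 179 and 181 CPM in APAP_HDF livers and 163, 181 and 174 CPM in APAP livers. It was again highest in APAP_MSC, with 0.15 (SE 0.09, edgeR adjusted p = 0.342) over APAP_HDF. Psmb7 had 69.2, 67 and 71.8 CPM in APAP_MSC livers, 66.1, 75 and 68.5 CPM in APAP_HDF livers and 71.2, 65.9 and 68.5 CPM in APAP livers. Its groups overlapped. As a share of the transcripts of the 6 catalytic genes, each taken per kilobase, the immunoproteasome genes made up 8.88%, 8.55% and 8.21% in APAP_MSC, 7.28%, 5.79% and 4.91% in APAP_HDF and 8.09%, 6.01% and 10.8% in APAP libraries. APAP_MSC and APAP_HDF did not overlap, and the APAP libraries overlapped both; APAP_HDF libraries 2 and 3 were below every APAP library. The mean share was 8.55% ± 0.332 in APAP_MSC, 5.99% ± 1.20 in APAP_HDF and 8.30% ± 2.40 in APAP (SD, n = 3 each). The log2 ratio of summed immunoproteasome to summed constitutive counts was -2.77 ± 0.07 in APAP_MSC, -3.34 ± 0.31 in APAP_HDF and -2.86 ± 0.47 in APAP. APAP_MSC exceeded APAP_HDF by 0.57 and by 0.43 to 0.74 when any 1 library was left out. Within pairs, Psmb10 made up 27.3% ± 1.92 of Psmb10 plus Psmb7 in APAP_MSC and 18.5% ± 0.777 in APAP_HDF. Psmb8 made up 6.59% ± 0.919 of its pair in APAP_MSC and 4.92% ± 1.29 in APAP_HDF. Psmb9 made up 3.22% ± 0.593 of its pair in APAP_MSC and 2.31% ± 1.29 in APAP_HDF.

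**Figure D3:**
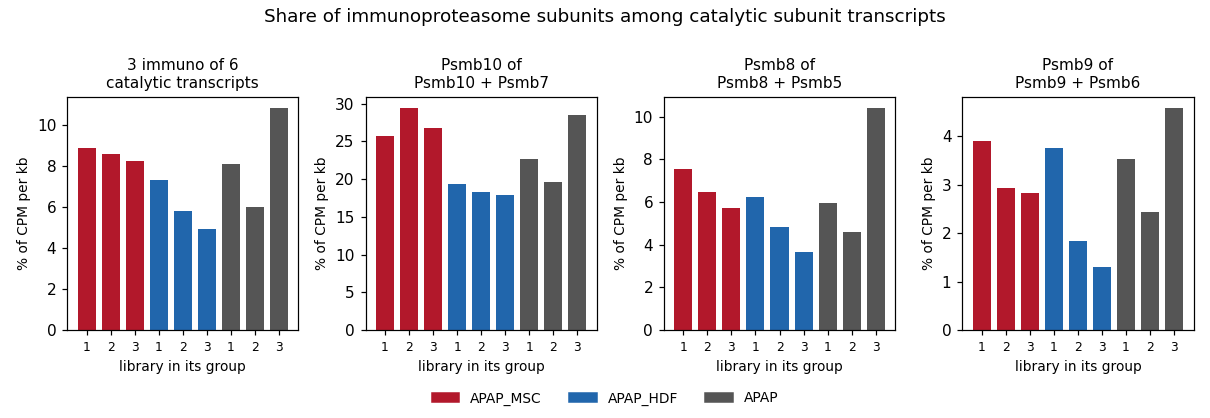
Percentage (y axis, from 0, of CPM per kb) that the immunoproteasome genes make up of all 6 catalytic genes, and of each replacement pair, in libraries 1 to 3 (x axis) of APAP_MSC, APAP_HDF and APAP; 1 bar is 1 library. In the left panel the APAP_MSC bars stand at 8.21% to 8.88%, the APAP_HDF bars at 4.91% to 7.28%, and the APAP bars at 6.01% to 10.8%.

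PA28 is the cap made of the Psme1 and Psme2 products that opens the core without ATP. Psme1 had 81, 76.6 and 74.9 CPM in APAP_MSC livers, 47.1, 54.3 and 49.3 CPM in APAP_HDF livers and 64.5, 55.1 and 78.3 CPM in APAP livers. The APAP_MSC and APAP_HDF libraries did not overlap, and APAP library 3 lay within the APAP_MSC range. Psme1 averaged 77.5 ± 3.16 CPM in APAP_MSC and 50.2 ± 3.71 CPM in APAP_HDF (SD, n = 3 each). The log2 fold change was 0.63 (SE 0.12) with an edgeR adjusted p of 0.0131, which became 0.0518 without APAP_MSC library 1 and 0.0559 without APAP_MSC library 2. Psme2 had 46.7, 49.2 and 42.6 CPM in APAP_MSC livers, 28.8, 33.3 and 28.8 CPM in APAP_HDF livers and 33.7, 32.9 and 40.6 CPM in APAP livers. Each APAP_MSC library was above each of the other 6. Psme2 averaged 46.2 ± 3.32 CPM in APAP_MSC and 30.3 ± 2.61 CPM in APAP_HDF (SD, n = 3 each). The log2 fold change was 0.61 (SE 0.11) with an edgeR adjusted p of 0.00978, a call lost without APAP_MSC library 2 alone (0.0547). Psme2b, a copy of Psme2 on another chromosome, had 12.4, 13.3 and 12.3 CPM in APAP_MSC livers, 6.56, 9.90 and 7.26 CPM in APAP_HDF livers and 9.0, 8.74 and 11.6 CPM in APAP livers. Its APAP_MSC libraries were above all others, with a log2 fold change of 0.68 (SE 0.17, edgeR adjusted p = 0.0325) over APAP_HDF. How reads shared between Psme2 and Psme2b were counted is not given in the sources used here, so Psme2b is not an independent observation. Its call was lost without APAP_MSC library 1, 2 or 3 (edgeR adjusted p 0.0852, 0.126 and 0.0611) and without APAP_HDF library 1 or 3 (0.0814 and 0.0825). Psme3, whose product forms the nuclear PA28 cap, was not called, at a log2 fold change of -0.08 (SE 0.10, edgeR adjusted p = 0.655).

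PA200, the product of Psme4, caps the core mainly in the nucleus. Psme4 had 135, 143 and 146 CPM in APAP_MSC livers, 180.1, 181 and 196 CPM in APAP_HDF livers and 181, 159.9 and 159 CPM in APAP livers. All APAP_MSC libraries were below all others, and APAP_HDF and APAP overlapped. Psme4 averaged 141 ± 5.60 CPM in APAP_MSC and 186 ± 9.18 CPM in APAP_HDF (SD, n = 3 each), a log2 fold change of -0.39 (SE 0.10) with an edgeR adjusted p of 0.0278. The adjusted p was 0.113, 0.125 and 0.0653 without APAP_MSC library 1, 2 and 3, and 0.0629 and 0.0991 without APAP_HDF library 2 and 3. The core inhibitor gene Psmf1 had 29.3, 25.3 and 28 CPM in APAP_MSC livers, 25.6, 24.3 and 26.1 CPM in APAP_HDF livers and 24.5, 28.5 and 23.4 CPM in APAP livers. Its groups overlapped, with a log2 fold change of 0.12 (SE 0.11, edgeR adjusted p = 0.515).

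Promoter windows are shown for 5 of the 6 genes called between APAP_MSC and APAP_HDF, leaving out the copy Psme2b, because these members moved in both directions. RefSeq windows (GRCm38.p6, 250 bases before the start site and 50 from it) were found for 41 of 49 members; Psma8, Psmb1, Psmb2, Psmb7, Psmc3, Psmd3, Psmd7 and Psmg2 had none. The windows shown are those of Psmb10 (chr8:105938343-105938642, minus strand), Psme1 (chr14:55578244-55578543, plus strand), Psme2 (chr14:55591052-55591351, minus strand), Psmd8 (chr7:29180624-29180923, minus strand) and Psme4 (chr11:30771525-30771824, plus strand). Capitals mark a match to a searched motif on either strand.
Psmb10: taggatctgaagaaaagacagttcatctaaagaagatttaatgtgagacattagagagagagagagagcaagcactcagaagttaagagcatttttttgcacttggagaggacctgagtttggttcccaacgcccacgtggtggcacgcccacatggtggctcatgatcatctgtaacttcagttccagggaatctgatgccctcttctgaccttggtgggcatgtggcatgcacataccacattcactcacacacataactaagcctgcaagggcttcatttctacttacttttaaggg
Psme1: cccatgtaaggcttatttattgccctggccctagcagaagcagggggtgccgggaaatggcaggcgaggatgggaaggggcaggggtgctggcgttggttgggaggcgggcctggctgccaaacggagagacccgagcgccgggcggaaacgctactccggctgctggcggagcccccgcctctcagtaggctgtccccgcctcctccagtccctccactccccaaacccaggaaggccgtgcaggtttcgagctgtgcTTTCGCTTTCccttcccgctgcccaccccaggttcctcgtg
Psme2: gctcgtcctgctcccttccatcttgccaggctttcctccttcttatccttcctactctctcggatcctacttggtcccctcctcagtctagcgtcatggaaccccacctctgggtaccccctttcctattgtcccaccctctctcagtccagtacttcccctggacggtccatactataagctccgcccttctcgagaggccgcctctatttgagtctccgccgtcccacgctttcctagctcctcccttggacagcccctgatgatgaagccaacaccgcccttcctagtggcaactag
Psmd8: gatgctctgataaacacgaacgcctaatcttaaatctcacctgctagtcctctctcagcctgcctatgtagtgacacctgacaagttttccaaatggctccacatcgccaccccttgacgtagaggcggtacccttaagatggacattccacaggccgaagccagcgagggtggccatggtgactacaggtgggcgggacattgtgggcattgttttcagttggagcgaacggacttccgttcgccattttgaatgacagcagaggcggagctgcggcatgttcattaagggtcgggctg
Psme4: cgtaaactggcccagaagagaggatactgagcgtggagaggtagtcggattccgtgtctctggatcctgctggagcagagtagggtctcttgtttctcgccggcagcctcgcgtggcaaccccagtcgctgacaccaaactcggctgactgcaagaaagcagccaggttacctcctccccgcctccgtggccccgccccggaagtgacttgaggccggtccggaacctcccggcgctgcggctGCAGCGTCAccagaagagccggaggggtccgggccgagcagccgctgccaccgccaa
The interferon-stimulated response element was searched as GAAA and GAAA with any 2 bases between. The gamma-activated site was searched as TTCNNNGAA, and the antioxidant response element, which NFE2L1 and NFE2L2 bind, as TGACNNNGC. The CCAAT box was searched as CCAAT. Only 1 window per member was searched, the most upstream listed, so elements outside it or with other letters would be missed. The 32851 windows used for shares were not limited to 1 per gene. No window of the 5 held more than 1 match, so none overlapped another motif, and Psmb10, Psme2 and Psmd8 held none. In Psme1 it was the interferon-stimulated element starting at base 10, counting the start site as 1, in the reverse orientation, found in 3.44% of all 32851 windows. In Psme4 it was the antioxidant element, beginning 7 bases before the start site, also reversed, found in 12.4% of all windows. The antioxidant element was found in 6 of 41 members with a window (14.6%): Psmb5, Psmb6, Psmc6, Psmd12, Psme4 and Psmd9. The interferon-stimulated element was found in 5 of 41 (12.2%), against 3.44% of all windows: Psmb3, Psmd4, Psme1, Psmg4 and Psmd9. Psme1 was the 1 of 7 immunoproteasome and PA28 genes (14.3%) that held it, beside 4 of 34 other members (11.8%). The gamma-activated site was found in Psmb8, Psmd2 and Psmg1, 3 of 41 (7.32%), against 8.3% of all windows, and the CCAAT box in 14 of 41 (34.1%), against 37.4%.

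Of the 14 core genes outside the testis and immune forms, 0 passed the edgeR test in any comparison, and 0 passed by DESeq2 or limma-voom. DESeq2 called 14.4% of all genes in APAP_MSC over APAP_HDF, 11.7% in APAP_MSC over APAP and 0.472% in APAP_HDF over APAP. In the same order limma-voom called 1437, 884 and 0 genes. Of all tested genes, edgeR called 8.89% in APAP_MSC over APAP_HDF, 6.38% in APAP_MSC over APAP and 0% in APAP_HDF over APAP. An unadjusted p under 0.05 was found for 2 of 14, 2 and 0 in the same order, against 25.7%, 22.9% and 8.78% of all genes. Their log2 fold changes of APAP_MSC over APAP_HDF ran from -0.24 (Psma5) to 0.27 (Psma4) with a median of 0.03, beside -0.02 over all tested genes. Psma4, an alpha ring gene, had 137, 158 and 145 CPM in APAP_MSC livers, 112, 127 and 125 CPM in APAP_HDF livers and 119, 123 and 132 CPM in APAP livers. Its APAP_MSC libraries were above all others, with an edgeR adjusted p of 0.104 against APAP_HDF and 0.177 against APAP. Psmb1, a structural beta gene, had 125, 134 and 123 CPM in APAP_MSC livers, 104, 112 and 113 CPM in APAP_HDF livers and 112, 111 and 112 CPM in APAP livers. It was also highest in APAP_MSC, at 0.22 (SE 0.09, edgeR adjusted p = 0.132) over APAP_HDF. Psma8 had 1.16, 0.755 and 1.20 CPM in APAP_MSC livers, 1.09, 0.894 and 0.580 CPM in APAP_HDF livers and 1.05, 0.597 and 1.24 CPM in APAP livers. Its groups overlapped, with an edgeR adjusted p of 0.658 for APAP_MSC over APAP_HDF. Psmc3ip, the member that is no subunit, had 0.591, 0.397 and 0.476 CPM in APAP_MSC livers, 0.456, 0.553 and 0.561 CPM in APAP_HDF livers and 0.433, 0.373 and 0.528 CPM in APAP livers. Its groups also overlapped, with an edgeR adjusted p of 0.877.

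In the regulatory particle 13 of 17 base and lid genes had a negative log2 fold change of APAP_MSC over APAP_HDF, with a median of -0.10 (76.5% negative, against 52.3% of all tested genes). Against APAP, 10 of 17 were negative in APAP_MSC, with a median of -0.02 (58.8%, against 51.1% of all genes). In APAP_HDF over APAP 14 of 17 were positive, with a median of 0.099 (82.4%, against 49% of all genes). Of the 17, 1 (5.88%) passed the test of APAP_MSC over APAP_HDF, against 8.89% of all genes. That gene, Psmd8, a lid subunit, had 199.6, 188 and 191 CPM in APAP_MSC livers, 262, 239.8 and 244 CPM in APAP_HDF livers and 215, 229 and 241 CPM in APAP livers. All APAP_MSC libraries were below all others. Psmd8 averaged 193 ± 5.95 CPM in APAP_MSC and 249 ± 11.7 CPM in APAP_HDF (SD, n = 3 each), a log2 fold change of -0.37 (SE 0.09) with an edgeR adjusted p of 0.0342. Its edgeR call was lost without APAP library 2 (adjusted p = 0.0541). It was also lost without APAP_MSC library 1, 2 or 3 (0.0896, 0.16 and 0.0927) and without APAP_HDF library 1, 2 or 3 (0.0694, 0.0688 and 0.0794, adjusted p). Its log2 fold change stayed between -0.39 and -0.32. Psmd1, the large base scaffold, had 112, 109 and 115 CPM in APAP_MSC livers, 162, 129 and 125 CPM in APAP_HDF livers and 134, 126 and 125 CPM in APAP livers. The lowest 3 libraries were those of APAP_MSC, with -0.31 (SE 0.11, edgeR adjusted p = 0.101) over APAP_HDF, and APAP_HDF library 1 was its highest. Psmc5, a base ATPase, had 93.1, 99.5 and 92.1 CPM in APAP_MSC livers, 89, 81.9 and 81 CPM in APAP_HDF livers and 79.3, 82.5 and 84.3 CPM in APAP livers. The highest 3 libraries were those of APAP_MSC, with a log2 fold change of 0.18 (SE 0.09, edgeR adjusted p = 0.229). The lid deubiquitinase gene Psmd14 and the lid gene Psmd3 had unadjusted p-values of 0.0445 and 0.0139 in the same edgeR fit and log2 fold changes of -0.22 and -0.33.

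Of the 7 assembly chaperones 0 passed the edgeR test in any comparison. By DESeq2 1 passed, in APAP_MSC over APAP_HDF, where DESeq2 called 14.4% of all genes. Of all tested genes, edgeR called 8.89% in APAP_MSC over APAP_HDF, 6.38% in APAP_MSC over APAP and 0% in APAP_HDF over APAP. An unadjusted edgeR p under 0.05 was found for 2 of 7, 1 and 0 in the same order, against 25.7%, 22.9% and 8.78% of all genes. The 4 chaperones of the core, Psmg1 to Psmg4, had log2 fold changes of APAP_MSC over APAP_HDF between 0.20 and 0.52, and the 3 of the base, Psmd5, Psmd9 and Psmd10, between -0.24 and -0.07. Psmg3 had 7.25, 6.18 and 6.54 CPM in APAP_MSC livers, 4.91, 4.0 and 5.02 CPM in APAP_HDF livers and 4.64, 4.89 and 5.34 CPM in APAP livers. Its APAP_MSC libraries were above all others, at 0.52 (SE 0.15, edgeR adjusted p = 0.0565), and DESeq2, which called more genes in all, gave an adjusted p of 0.0107. Psmd9 had 34.2, 39.9 and 40.3 CPM in APAP_MSC livers, 42.2, 46.2 and 46.7 CPM in APAP_HDF livers and 38.3, 39.6 and 40.2 CPM in APAP livers. Its APAP_HDF libraries were highest, at -0.24 (SE 0.10, edgeR adjusted p = 0.142). Pomp, the maturation factor of the beta rings, lies outside the symbol rule. It had 98.1, 105 and 94.5 CPM in APAP_MSC livers, 70.2, 77.5 and 74.5 CPM in APAP_HDF livers and 86.2, 80.3 and 81.5 CPM in APAP livers. Its APAP_MSC libraries were above all others, and it was higher in APAP_MSC than in APAP_HDF by 0.42 log2 units (SE 0.09, edgeR adjusted p = 0.0161).

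Against APAP alone, no member passed the edgeR test after either infusion. The comparisons share the APAP libraries, and each shares its infused group's libraries with the comparison above. For APAP_MSC over APAP, 0 of 49 members were called, against 6.38% of all genes (2.83% higher and 3.54% lower). An unadjusted p under 0.05 was found for 8 members (16.3%), against 22.9% of all genes (10.2% higher and 12.7% lower). The libraries did not overlap for 18 members (36.7%, 13 higher and 5 lower), against 28.5% of all genes (13.7% higher and 14.7% lower). By limma-voom 0 members were called, among 884 genes called in all, and by DESeq2 1 (2.04%), Psme2, against 11.7% of all genes. Psme2 had a log2 fold change of 0.37 (SE 0.11), an edgeR adjusted p of 0.0745 and a DESeq2 adjusted p of 0.0376; without APAP library 3 the edgeR adjusted p was 0.0436 at 0.47. Beside it, 5 of 10 monocyte and macrophage markers, 4 of 6 tested neutrophil markers, 2 of 8 leukocyte markers and the endothelial marker Lyve1 were called lower in APAP_MSC than in APAP. The monocyte and macrophage markers were Cd68, Itgam, Chil3, Trem2 and Fcgr1, the neutrophil markers S100a8, S100a9, Retnlg and Mmp8, and the leukocyte markers Coro1a and Arhgdib. Retnlg and Mmp8 were low, with at most 0.629 and 0.649 CPM in any library. The erythroid marker Alas2 and the hepatocyte urea cycle gene Ass1 were called higher, and the part of these cell markers in the member values was not tested. The other 7 members with an unadjusted p under 0.05 were Psma4, Psmb1, Psmc5, Psme2b and Psmg3, with positive, and Psmd8 and Psme4, with negative log2 fold changes. Psmb8 and Psmb9 had -0.01 (SE 0.31) and 0.03 (SE 0.34), and without APAP library 3 Psmb8 had 0.48, with an edgeR adjusted p of 0.244. For APAP_HDF over APAP, 0 of 49 members and 0% of all genes were called by edgeR. By limma-voom 0 members and 0 genes in all were called, and by DESeq2 0 members, against 0.472% of all genes. There 2 members (4.08%) had an unadjusted p under 0.05, against 8.78% of all genes (3.65% higher and 5.14% lower). Both had negative log2 fold changes: Psme1 at -0.39 (SE 0.12, edgeR adjusted p = 0.504) and Psmb10 at -0.43 (SE 0.16, adjusted p = 0.542). Without APAP library 3 these were -0.26 and -0.23, both still not called. The libraries did not overlap for 4 members (8.16%), Psmd6, Psmd9 and Psmd11 higher and Psme1 lower, against 11.7% of all genes (5.66% higher and 6.08% lower).

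Of 16 tested proteasome partners outside the symbol rule, 18.8% were called in APAP_MSC over APAP_HDF, against 8.89% of all genes. Of these, 1 was higher in APAP_MSC (Pomp) and 2 were lower. The lower genes were Zfand2a, a stress-induced proteasome-binding protein, at -1.15 (SE 0.23, edgeR adjusted p = 0.0169) and the ubiquitin shuttle gene Ubqln2 at -0.56 (SE 0.11, adjusted p = 0.0138). Zfand2a had 18.2, 12.8 and 18.2 CPM in APAP_MSC livers, 29.4, 32.3 and 47.3 CPM in APAP_HDF livers and 16.3, 27.1 and 24.9 CPM in APAP livers. The APAP_HDF libraries were the highest. Ubqln2 had 29.6, 28 and 35.3 CPM in APAP_MSC livers, 46.1, 43.7 and 47.5 CPM in APAP_HDF livers and 45.6, 49 and 40.0 CPM in APAP livers. All APAP_MSC libraries lay below all others, which gave -0.53 (SE 0.11, edgeR adjusted p = 0.0223) over APAP. Of 10 regulators of proteasome genes 0 passed the edgeR test in any comparison. An unadjusted p under 0.05 was found for 0 in APAP_MSC over APAP_HDF, against 25.7% of all genes. It was found for 2 in APAP_MSC and 2 in APAP_HDF over APAP, against 22.9% and 8.78% of all genes. Nfe2l1, a factor that raises subunit genes when proteasome activity is low, had 130.5, 126 and 138 CPM in APAP_MSC livers, 127, 124 and 144 CPM in APAP_HDF livers and 104, 112 and 119 CPM in APAP livers. APAP libraries were the lowest, with an edgeR adjusted p of 0.179 for APAP_MSC and 0.544 for APAP_HDF over APAP. Nfe2l2, the oxidative stress factor, had 66.1, 53.7 and 58.4 CPM in APAP_MSC livers, 56.9, 48.8 and 46.5 CPM in APAP_HDF livers and 52.3, 42.4 and 52.5 CPM in APAP livers. Its groups overlapped in part, with edgeR adjusted p-values of 0.205 and 0.935 in the same comparisons.

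MHC class I peptide loading uses the peptides the proteasome makes, and its list also held Nlrc5, a regulator of MHC class I genes. The log2 fold change of APAP_MSC over APAP_HDF was positive in 12 of 12 listed genes, against 47.7% of all tested genes. It ran from 0.018 to 0.50, with a median of 0.20. Against APAP, 8 of 12 were positive in APAP_MSC, with a median of 0.12, and 10 of 12 were negative in APAP_HDF, with a median of -0.23. Of the 12, 1 (8.33%) passed the edgeR test of APAP_MSC over APAP_HDF, against 8.89% of all genes. That gene was Tapbpl, a peptide editor, which had 38.1, 40.1 and 33.3 CPM in APAP_MSC livers, 28.9, 24.5 and 25.5 CPM in APAP_HDF livers and 24.4, 33.2 and 34.1 CPM in APAP livers. Each APAP_MSC library was above each APAP_HDF library, at 0.50 (SE 0.14, edgeR adjusted p = 0.0449). The 22 tested interferon gamma response genes had a median of 0.13 in that comparison, with 12 positive. None was called by edgeR in any comparison. An unadjusted p under 0.05 was found for 1 in APAP_MSC over APAP_HDF, against 25.7% of all genes. It was found for 2 in APAP_MSC and 2 in APAP_HDF over APAP, against 22.9% and 8.78% of all genes. The interferon gamma gene itself, Ifng, was listed at 0 in 8 of 9 libraries. The factor gene Irf1 had 17, 21.8 and 14.7 CPM in APAP_MSC livers, 23.4, 22.2 and 17.9 CPM in APAP_HDF livers and 18.6, 13.8 and 27.4 CPM in APAP livers. APAP library 3 was the highest, and the edgeR adjusted p for APAP_MSC over APAP_HDF was 0.547. Psmb8 and Psmb9 shared their highest library, APAP library 3, with the genes of this list. Psmb10, Psme1, Psme2 and Psme2b were highest in an APAP_MSC library, and APAP library 3 was their highest library outside APAP_MSC. They had 30.9, 78.3, 40.6 and 11.6 CPM in APAP library 3, against at most 31.5, 81.0, 49.2 and 13.3 CPM in an APAP_MSC library. The summed level of the interferon list was 409.9 to 459.8 CPM in APAP_MSC, 419.7 to 575 CPM in APAP_HDF and 304 to 887 CPM in APAP libraries.

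**Figure D4:**
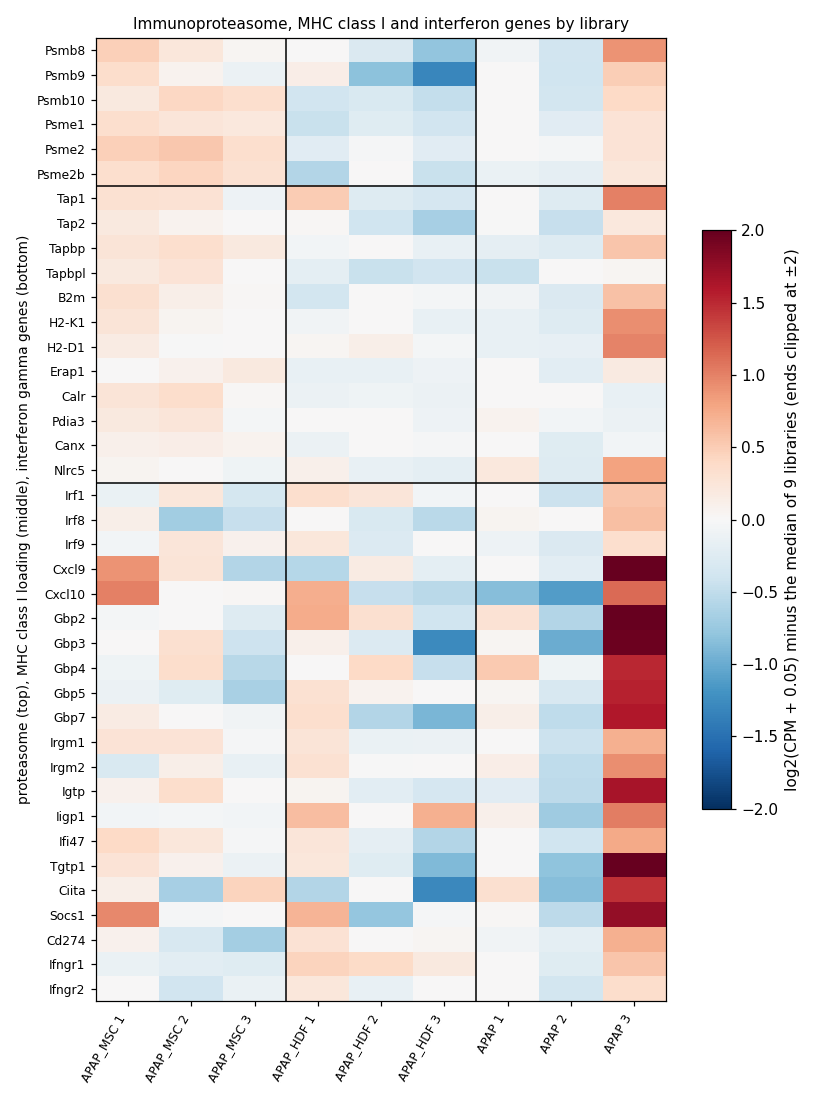
Colour shows log2(CPM + 0.05) minus the median of the 9 libraries, ends clipped at 2 log2 units either way, for immunoproteasome and PA28 genes (top rows), MHC class I loading genes (middle rows) and interferon gamma response genes (bottom rows); columns are libraries 1 to 3 of APAP_MSC, APAP_HDF and APAP. The column of APAP library 3 is red in 21 of 21 interferon gamma rows. The rows of Psmb10, Psme1, Psme2 and Psme2b are red in all 3 APAP_MSC columns and in APAP library 3, and mostly blue in the APAP_HDF columns.

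Markers of other cell types, which could carry immunoproteasome RNA of their own, were set beside these results, and their part in the results was not tested. The 8 leukocyte markers summed to 95.8 to 105 CPM in APAP_MSC, 78.7 to 117 CPM in APAP_HDF and 119 to 154 CPM in APAP libraries, and none of the 8 was called between APAP_MSC and APAP_HDF. The 10 monocyte and macrophage markers summed to 61.5 to 85.1 CPM in APAP_MSC, 87.3 to 129.9 CPM in APAP_HDF and 126 to 183 CPM in APAP libraries. Of these 10, 2 were called lower in APAP_MSC than in APAP_HDF, Cd68 and Chil3, in a comparison that called 8.89% of all genes. By sign in that comparison, 9 of 10 monocyte and macrophage, 6 of 6 neutrophil and 6 of 8 leukocyte markers were negative. Positive were 5 of 6 Kupffer, 5 of 8 dendritic, 4 of 7 T and NK and 5 of 5 B cell markers. The 6 Kupffer cell markers summed to 92.4 to 161 CPM in APAP_MSC, 61.8 to 138 CPM in APAP_HDF and 109 to 271 CPM in APAP libraries, and the 8 dendritic cell markers to 34.3 to 40.7 CPM in APAP_MSC, 26.4 to 41.8 CPM in APAP_HDF and 33 to 129 CPM in APAP libraries; none of either list was called, and APAP library 3 was highest for 6 of 6 and 6 of 8. The 12 T and NK cell markers, of which 7 were tested and none called, summed to 2.03 to 2.38 CPM in APAP_MSC, 0.996 to 2.94 CPM in APAP_HDF and 2.48 to 5.60 CPM in APAP libraries. Of the defining genes Cd3d, Gzma, Gzmb and Ncr1 were at 0 in 2 libraries each and Nkg7 and Klrb1c in 1, and a count of 0 allows up to 3 counts. The 7 neutrophil markers summed to 2.87 to 4.21 CPM in APAP_MSC, 3.37 to 11 CPM in APAP_HDF and 9.54 to 12.7 CPM in APAP libraries and 1 of 6 tested, Mmp8, was called lower in APAP_MSC than in APAP_HDF. Mmp8 counts were low, at 0.0369, 0.0755 and 0.141 CPM in APAP_MSC and 0.330, 0.325 and 0.398 CPM in APAP_HDF. Ly6g was at 0 in 7 libraries, Retnlg in 2 and Cxcr2 in 1. The 6 B cell markers, of which 5 were tested and none called, summed to 2.22 to 4.21 CPM in APAP_MSC, 1.63 to 3.23 CPM in APAP_HDF and 2.26 to 4.54 CPM in APAP libraries. Of the 6 cholangiocyte markers, which summed to 116 to 132 CPM in APAP_MSC, 99.5 to 104 CPM in APAP_HDF and 95 to 149 CPM in APAP libraries, 4 were called higher in APAP_MSC than in APAP_HDF: Krt19, Epcam, Spp1 and Cftr. Of the 8 sinusoidal endothelial markers, summing to 131 to 150.5 CPM in APAP_MSC, 171 to 252 CPM in APAP_HDF and 177 to 273 CPM in APAP libraries, 2 were called lower, Lyve1 and Fcgr2b, and of the 8 stellate markers, summing to 155 to 169.9 CPM in APAP_MSC, 102 to 148 CPM in APAP_HDF and 131 to 207 CPM in APAP libraries, 1, Col3a1, was called higher. The 5 erythroid markers summed to 129.6 to 221 CPM in APAP_MSC, 69.8 to 86.7 CPM in APAP_HDF and 56.5 to 177 CPM in APAP libraries, and 1 of 4 tested, Alas2, was called higher. Of the 11 hepatocyte markers 2, the urea cycle genes Ass1 and Cps1, were called higher in APAP_MSC than in APAP_HDF, at 0.98 (SE 0.19, edgeR adjusted p = 0.0119) and 0.73 (SE 0.16, adjusted p = 0.0213).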

How the data were processed

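Whole-liver mRNA was sequenced in 9 libraries, 3 per group. The tools named are HISAT2, Subread and DESeq2 and the build is mm39/GRCm39, per the submitters' processing notes; the parameters and the treatment of strand and shared reads are not given in the sources used here. The deposited table holds raw counts per gene, as the authors counted them; their normalized table was not used. Column headers name the group only, so libraries were numbered by column order. Members and lists were chosen with earlier results of these data known. Counts were tested with edgeR 4.0.16 (R 4.3.3; quasi-likelihood, robust, TMM factors 0.934 to 1.11, filterByExpr, 1 fit over 9 libraries, two-sided, Benjamini-Hochberg over 17582 genes, adjusted p under 0.05), after the script was tested on simulated data. Each SE given is the absolute log2 fold change divided by the square root of edgeR's F statistic. Alternatives were DESeq2 1.42.0, limma-voom 3.58.1, DESeq2 size factors, no filter, only the groups compared, and each library left out. Exon lengths come from GENCODE annotation of GRCm38, as the union of exons over a gene's protein-coding transcripts. Values are given per library for Psmb5 to Psmb10, Psme1, Psme2, called members and the member of smallest p in each role; from the lists, called genes, with exceptions, and Irf1, Tap1, Nfe2l1, Nfe2l2 and Pomp are named; a few results on list genes are not reported here. Psmd3 and Psmd14 were named after their values were seen.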

Additional observations from a re-analysis of the deposited data

How the results depend on the processing

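Under DESeq2 size factors, no filter, limma-voom and a fit of only the compared groups, 6 members were called for APAP_MSC over APAP_HDF, the same 6 as reported. Calls over all genes in these settings were 1541, 1379, 1437 and 1779 in the same order, against 1563 in the main fit. DESeq2 gave the same 6 members and Psmg3, 7 in all (14.3%, against 14.4% of all genes). Leaving out 1 library gave 0 to 6 members in that comparison, 0 to 1 for APAP_MSC over APAP and 0 for APAP_HDF over APAP; DESeq2 gave 1 for APAP_MSC over APAP. Calls over all genes fell with them, to 361 without APAP_MSC library 2 against 1563 with all libraries. No paired analysis was possible because the table's columns carry no replicate numbers. Among the members given per library, the log2 fold changes that changed sign were at most 0.18 in size with all libraries, and Psmb8 then reached 0.48 without APAP library 3. Psmb8 in APAP_MSC over APAP was 0.0039 with DESeq2 size factors, 0.012 with no filter, 0.0094 with DESeq2 and 0.064 with limma-voom, and Psmb7 in APAP_MSC over APAP_HDF was 0.0081 with no filter and 0.00038 with only the groups compared. Leaving out 1 library gave, for APAP_MSC over APAP_HDF, -0.041 to 0.042 for Psmb7 and -0.25 to 0.041 for Psmc3ip. For APAP_MSC over APAP it gave -0.13 to 0.34 for Psma8, -0.00013 to 0.063 for Psmb7, -0.23 to 0.48 for Psmb8, -0.14 to 0.30 for Psmb9, -0.038 to 0.27 for Psmc3ip and -0.071 to 0.027 for Psmd9. For APAP_HDF over APAP it gave -0.074 to 0.014 for Psma4, -0.42 to 0.051 for Psma8, -0.053 to 0.0035 for Psmb1, -0.016 to 0.054 for Psmb6, -0.026 to 0.063 for Psmb7, -0.013 to 0.059 for Psmc5, -0.019 to 0.18 for Psmd1, -0.076 to 0.076 for Psmf1 and -0.16 to 0.00057 for Psmg3. The cause was not tested. Psma8 and Psmc3ip, near 1 CPM or below, are the members that depth limits most.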
